A study of Mus musculus with 6 samples.

Results

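The integrin and laminin chains are the receptor subunits and the basement membrane subunits through which a cell holds its matrix. They were taken from the gene table of an RNA-seq experiment by symbol, as every row named Itga or Itgb followed by an integrin chain designation, or Lama, Lamb or Lamc followed by a digit. The rule found 38 rows of the 53797 in the table. These rows hold 37 symbols, because Itgam is listed under 2 Ensembl identifiers, with 18 integrin α chains, 8 integrin β chains and 11 laminin chains. All cells were of MLO-Y4, a single mouse line that resembles osteocytes, the mechanosensitive cells embedded in bone matrix, and were precultured overnight on collagen-coated dishes. In the LIPUS group, 3 samples received low-intensity pulsed ultrasound at 1.5 MHz and 30 mW/cm2 for 20 min. In the Control group, 3 samples were untreated and stood in the same plate over transducers that were unplugged. RNA was extracted 30 min after the stimulation. The experiment therefore asked which transcripts differ shortly after LIPUS.

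The values are FPKM, fragment numbers scaled to transcript length and sequencing depth, so that levels of genes of different length can be set side by side. The deposited table gives 1 pooled FPKM for each group and no value for any single library. No SD, interval or test over samples was therefore computed for any chain, and the test columns of the authors' own comparison were not used. The methods give a single read depth for all samples, but the number of reads behind each value is not in the table. The study's own principal component analysis placed a control replicate apart from the other libraries of its group, and that replicate is part of every pooled Control value and could not be left out. The paper proposes that ultrasound may have leaked into control cells of the shared plate, which was not tested here. A chain was counted as expressed when the mean of its 2 pooled values was at least 1 FPKM, which held for 11536 genes, or 21.4% of the table. As a check of the cell line, Pdpn, an early osteocyte marker, had 402 FPKM with LIPUS and 295 FPKM in Control, and Gja1, the gap junction protein connexin 43, had 169.7 and 176 FPKM. Of the other osteocyte and bone matrix markers, Col1a1 had 731 and 891 FPKM, Dmp1 had 7.65 and 3.04 FPKM, Bglap had 1.58 and 0 FPKM, and Phex had 0.190 and 0 FPKM. The late markers Sost, Mepe and Fgf23 were listed at 0 in both groups. All 5 epithelial markers (Epcam, Cdh1, Krt5, Krt14 and Cldn4) were also listed at 0, as were 4 of 5 endothelial markers, with Pecam1 at 0 FPKM with LIPUS and 0.496 FPKM in Control.

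Integrins are heterodimers of an α and a β chain that span the membrane. Their outer domains bind matrix proteins, and the short tail of the β chain recruits talin and kindlin, which connect the receptor to actin. The pairing decides the ligand. Chains α5, α8, αV and αIIb bind proteins with an RGD motif such as fibronectin and vitronectin, α1, α2, α10 and α11 bind collagen, α3, α6 and α7 bind laminin, and the β2 and β7 integrins are best known from leukocytes. Laminins are trimers of an α, a β and a γ chain that polymerize into the sheet of the basement membrane. In bone cells, integrins are studied as a link between matrix deformation and signalling.

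Of the 38 rows, 21 were expressed, 9 were above 0 but below the minimum, and 8 were listed at 0 in both groups. The expressed chains were 8 integrin α chains, 6 integrin β chains and 7 laminin chains. By mean FPKM they ranked from 141 (Itga5) to 10978 (Lamb3) among the 11536 expressed genes. Itgb1 ranked 348 and Itgb5 ranked 522. The chains listed at 0 were Itga4, Itga8, Itga9, Itgam, Itgax, Itgb6 and Lamc3. A value of 0 says that no level was given for the gene, not that the transcript is absent.

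**Figure D1:**
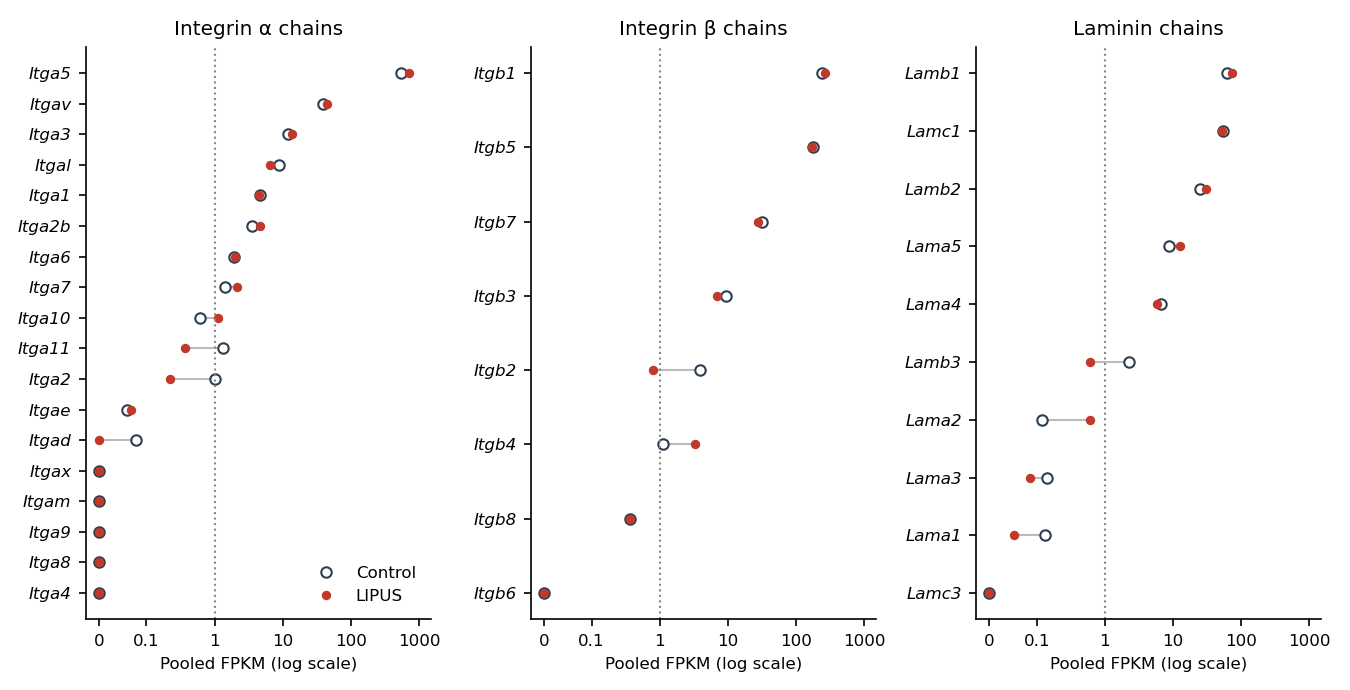
Pooled FPKM of the integrin α, integrin β and laminin chains named in the text in Control (open circles) and LIPUS (filled circles) on a log axis, with values of 0 drawn at the left end, the expression minimum of 1 FPKM as a dotted line and no error bars, since each group has 1 pooled value. Itga5, Itgb1 and Itgb5 lie above 100 FPKM in both groups, and the widest gaps between the groups are seen among chains with a mean below 5 FPKM.

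The RGD-binding receptors supplied the most abundant chains. Itga5, the α chain of the classical fibronectin receptor, had 709 FPKM with LIPUS and 545 FPKM in Control. It made up 89.8% of the summed FPKM of all integrin α chains with LIPUS and 88.0% in Control. Its level was 30.2% higher with LIPUS, a log2 difference of 0.38. Among the 1980 genes with a mean of at least 50 FPKM, 10.9% differed by as much or more in either direction. Itga5 (ENSMUSG00000000555) lies on the minus strand of chromosome 15, from 103344286 to 103366763 in GRCm38.

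Itgb1, the β chain shared by most matrix receptors, had 266 FPKM with LIPUS and 239 FPKM in Control, a log2 difference of 0.16. It lies on the plus strand of chromosome 8 from 128685654 to 128733200. Itga5 alone was 2.67 times the level of Itgb1 with LIPUS and 2.28 times in Control. The 12 α chains that can pair with Itgb1 summed to 778 and 607 FPKM, or 2.93 and 2.54 times the level of Itgb1. Transcripts of β1 were thus fewer than those of its partners in both groups, on a scale that corrects for length. Protein was not measured.

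Itgav, the α chain of the vitronectin receptors, had 45.0 FPKM with LIPUS and 39.1 FPKM in Control, a log2 difference of 0.20. Its partner Itgb5 had 169.7 and 175 FPKM, with a log2 difference of -0.05. Itgb3, the other main vitronectin receptor β chain, had 6.94 and 9.41 FPKM (-0.44), so that Itgb5 exceeded Itgb3 by 24.5 times with LIPUS and 18.6 times in Control. The αVβ3 and αVβ5 receptors share ligands, and in these cells the β5 transcript was the more abundant. Itga2b, known as the platelet partner of β3, had 4.71 and 3.53 FPKM (0.41). Itgb8, which pairs with αV to activate latent TGF-β, was below the minimum with 0.368 and 0.371 FPKM, and Itgb6, its epithelial counterpart, was listed at 0.

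The laminin-binding chains were expressed at lower levels. Itga3, a receptor chain for laminins with α3 or α5, was the most abundant of them, with 13.7 FPKM with LIPUS and 12.2 FPKM in Control (log2 difference 0.17). Itga6, a broad laminin receptor chain, had 2.02 and 1.94 FPKM (0.05). Itga7, known from muscle, had 2.15 and 1.41 FPKM and a log2 difference of 0.58, just under the limit of 0.585 (1.5-fold) used below, although the plain ratio of its FPKM values was 1.53. Itgb4, which pairs only with α6 and is known from the hemidesmosomes of epithelia, had 3.27 FPKM with LIPUS and 1.12 FPKM in Control. This was 2.92-fold higher with LIPUS, or 1.47 on the log2 scale, and was the largest positive difference among the expressed chains. Itgb4 lies on the plus strand of chromosome 11 from 115974709 to 116008412. It was at a low level in both groups, and 4.51% of the 1840 genes with a mean between 2 and 5 FPKM differed by as much. An antisense noncoding gene, B230344G16Rik, overlaps 7.66% of its exonic length and had 0 FPKM with LIPUS and 0.130 FPKM in Control.

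Of the collagen-binding chains, only Itga1 was expressed. It had 4.44 FPKM with LIPUS and 4.61 FPKM in Control, a log2 difference of -0.05. The other collagen receptor chains stood near the minimum and differed in opposite directions. Itga10 had 1.14 and 0.614 FPKM, Itga11 had 0.366 and 1.33 FPKM, and Itga2 had 0.218 and 1.005 FPKM. Each of them had a mean below 1 FPKM, and Itga10 shares 33.5% of its exonic length with the protein-coding gene Gm42957 on the same strand, so that its reads can be assigned to either. Itga1 and Itga2 are neighbours on chromosome 13 with a gap of 20995 bases, yet the mean level of Itga1 was 4.52 FPKM and that of Itga2 was 0.611 FPKM.

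Some chains that are best known from leukocytes were also present. Itgb7 had 27.4 FPKM with LIPUS and 31.2 FPKM in Control, a log2 difference of -0.19, and was the third most abundant β chain. Its known partners were at or near 0, with Itga4 listed at 0 and Itgae at 0.0595 and 0.0513 FPKM. Itgal, the α chain of the leukocyte receptor for ICAM proteins, had 6.45 and 8.73 FPKM (-0.43). Its partner Itgb2 had 0.790 FPKM with LIPUS and 3.97 FPKM in Control, which was 5.02-fold lower with LIPUS, or -2.19 on the log2 scale. Itgb2 passed the minimum only through its Control value, and 1.74% of the genes with a mean between 2 and 5 FPKM differed by as much. The other partners of β2 were at or near 0, with Itgam and Itgax listed at 0 and Itgad at 0 and 0.0692 FPKM. Of the leukocyte markers, Ptprc, Adgre1 and Cd3e were listed at 0 and Csf1r had 0.233 and 0.236 FPKM. The macrophage-associated Cd68 had 1.72 FPKM with LIPUS and 5.32 FPKM in Control, which is the same direction as Itgb2, and these markers summed to 1.96 and 5.55 FPKM. Their part in the level of Itgb2 was not tested, and in such bulk samples fewer cells of a type and less RNA per cell cannot be told apart. Itgb2 lies on the plus strand of chromosome 10 from 77530252 to 77565708, and no other annotated exon overlaps it.

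Both chains were expressed for 11 of the 24 integrin pairs known in mammals. By ligand these were 5 of 8 RGD-binding pairs, 4 of 4 laminin-binding pairs, 1 of 4 collagen-binding pairs, 1 of 6 leukocyte pairs and 0 of 2 pairs of the α4 and α9 group. Ranked by the scarcer chain, α5β1 stood first, limited by Itgb1 at 266 FPKM with LIPUS and 239 FPKM in Control. The pairs αVβ1 and αVβ5 followed, both limited by Itgav, and then α3β1, limited by Itga3. The αLβ2 pair had both chains above 1 FPKM in Control only. Transcripts of both chains do not show that the receptor was assembled.

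**Figure D2:**
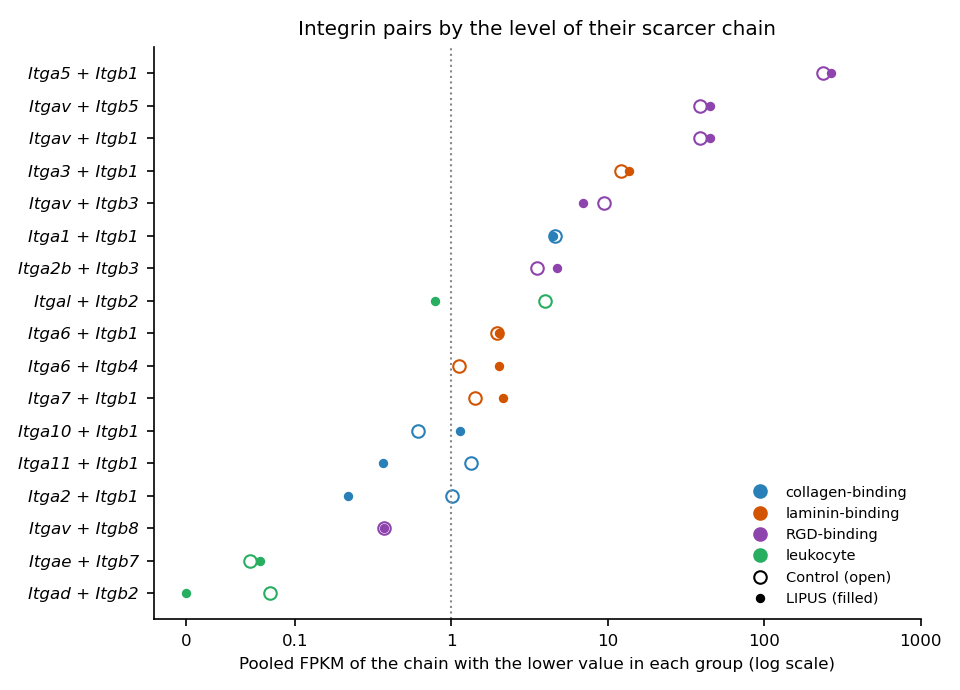
Pooled FPKM of the scarcer chain of each integrin pair whose chains are both above 0 in at least 1 group, in Control (open circles) and LIPUS (filled circles) on a log axis, coloured by ligand class, with 0 drawn at the left end and the minimum of 1 FPKM dotted. The α5β1 pair lies above 200 FPKM in both groups, and the αLβ2 pair lies at 3.97 FPKM in Control and 0.790 FPKM with LIPUS.

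Laminin transcripts were dominated by the β1 and γ1 chains. Lamb1 had 72.9 FPKM with LIPUS and 61.6 FPKM in Control, a log2 difference of 0.24. Lamc1, the γ chain of most laminins, had 51.5 and 53.4 FPKM (-0.05). Lamb2, the alternative β chain of vascular, muscle and synaptic basement membranes, had 30.1 and 24.8 FPKM (0.28), so that Lamb1 was 2.42 and 2.48 times as abundant.

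The α chains, which carry the binding sites for integrins, were scarcer than the β chains. Lama5 had 12.5 FPKM with LIPUS and 8.69 FPKM in Control, a log2 difference of 0.52, and 10.6% of the 4756 genes with a mean between 10 and 50 FPKM differed by as much. Lama4, a chain of vascular and mesenchymal laminins, had 5.86 and 6.605 FPKM (-0.17). The share of Lama5 in the summed α chains was 65.5% with LIPUS and 55.4% in Control. All α chains together summed to 19.1 and 15.7 FPKM, and the β chains to 104 and 88.7 FPKM. The β chains thus exceeded the α chains by 5.44 times with LIPUS and 5.66 times in Control, although a trimer holds 1 chain of each kind.

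**Figure D3:**
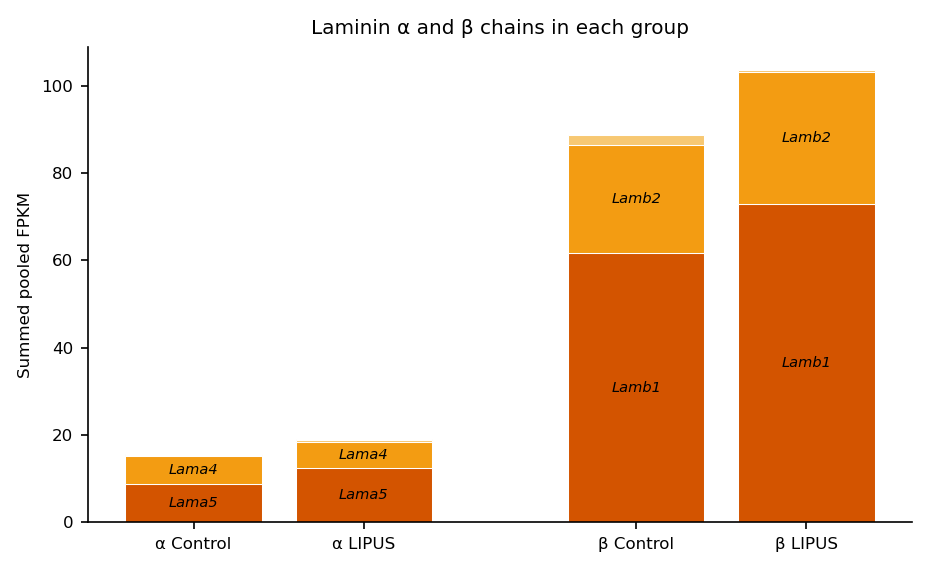
Summed pooled FPKM of the laminin α and β chains in Control and LIPUS, stacked by chain with the more abundant chain at the bottom, on a linear axis from 0. The α chains sum to 15.7 FPKM in Control and 19.1 FPKM with LIPUS, below the β chains in both groups.

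The remaining laminin chains were low. Lamb3, a chain of laminin-332, had 0.614 FPKM with LIPUS and 2.29 FPKM in Control, which was 3.72-fold lower with LIPUS, or -1.74 on the log2 scale. It too passed the minimum only through its Control value, and 10.4% of the 1044 genes with a mean between 1 and 2 FPKM differed by as much. In the annotation used here it lies on the plus strand of chromosome 1 from 193207699 to 193343878, a start that differs from the one in the gene table. Lama2, the muscle laminin chain, had 0.597 and 0.118 FPKM, Lama3 had 0.0791 and 0.140 FPKM, and Lama1, the chain of the embryonic laminin-111, had 0.0466 and 0.134 FPKM. All chains were expressed for 4 of 14 laminin trimers, namely laminin-511 and laminin-521, limited by Lama5, and laminin-411 and laminin-421, limited by Lama4.

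Compared between the groups, most chains differed little. With LIPUS 11 of the 21 expressed chains were higher by any amount and 10 were lower, a share of 52.4% against 49.8% of all expressed genes. The median log2 difference of these chains was 0.05 and that of all expressed genes was -0.00179. At a 1.5-fold limit, 1 chain was higher with LIPUS (Itgb4, 4.76%) and 2 were lower (Itgb2 and Lamb3, 9.52%), and 18 stayed within it. Among all expressed genes, 7.46% were higher and 8.08% were lower by the same limit. Itgb2 and Lamb3 were counted as expressed only through the group in which they were high. With at least 1 FPKM required in both groups, 19 chains were left, of which 1 was higher and 0 were lower, against 6.28% and 6.43% of the 11077 genes that passed.

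The 3 chains past the limit all had a mean below 5 FPKM, where pooled values differed most in general. Of all genes with a mean between 1 and 2 FPKM, 46.2% lay beyond 1.5-fold in either direction, and of those between 2 and 5 FPKM, 27.9%, against 4.65% of the genes with at least 50 FPKM. The 11 chains with a mean of at least 10 FPKM ranged in log2 difference from -0.19 (Itgb7) to 0.52 (Lama5), with a median of 0.17. Of these 11 chains, 7 were higher with LIPUS by any amount, against 49.8% of all genes with a mean of at least 1 FPKM. The latter share also covers genes below 10 FPKM and is not matched to the level of these chains. The 10 chains between 1 and 10 FPKM ranged from -2.19 to 1.47, with a median of -0.11. Among the integrin α chains, 6 of 8 were higher with LIPUS and none of the 8 passed 1.5-fold in either direction. Among the β chains 2 of 6 were higher, and among the laminin chains 3 of 7. Of all expressed genes, 49.8% were higher by any amount, and 7.46% were higher and 8.08% were lower by 1.5-fold.

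**Figure D4:**
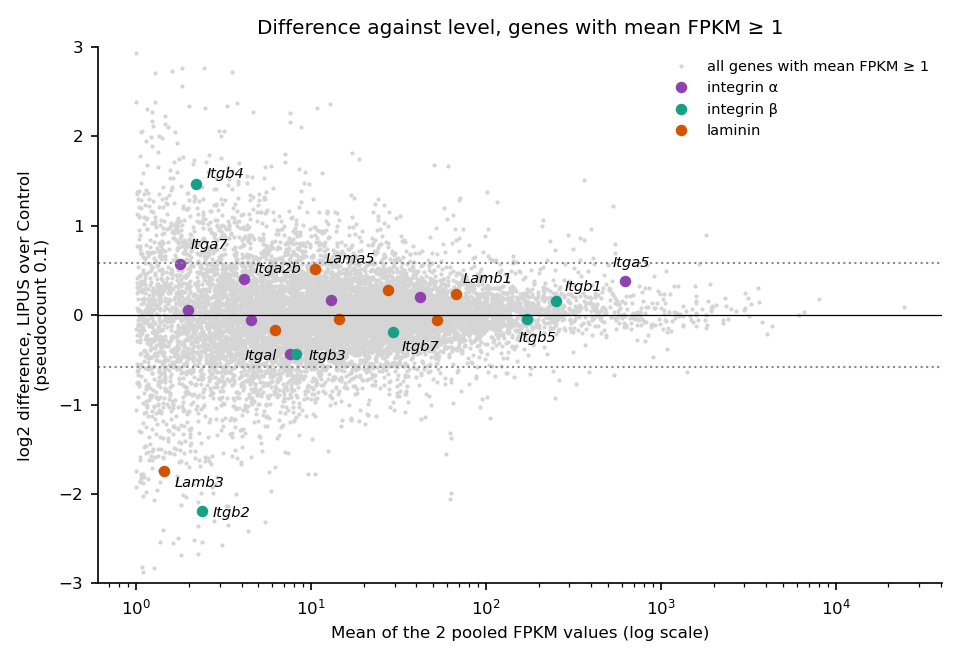
Log2 difference of LIPUS over Control, with a pseudocount of 0.1, against the mean of the pooled FPKM values on a log axis for all genes with a mean of at least 1 FPKM (grey), with integrin α, integrin β and laminin chains coloured and the 1.5-fold limits dotted. Only Itgb4, Itgb2 and Lamb3 of the coloured chains lie beyond the limits, all below 5 FPKM, and 90 genes of the whole set lie outside the drawn range.

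The sequences before the start sites were examined as a description of the chains at the extremes of level. RefSeq promoter entries on GRCm38.p6 matched 23 of the 37 symbols, with 26 entries. In the 250 bases before the start, the dinucleotide CG, which marks CpG island promoters when dense, occurred with a median of 10.5 in the 14 entries of expressed chains and 8 in the 12 entries of the others. The median was 16 in the entries of all expressed genes and 3 in those of genes at 0 in both groups. The latter class is narrower than that of the 12 entries, some of which belong to chains above 0. The GC box letters GGGCGG, which contain 1 CG, occurred on either strand in 7 of the 14 and in 2 of the 12 entries, or 50% and 16.7%, against 32.7% of all promoters of this length and 59.1% of those of expressed genes. The AP-1 letters TGANTCA occurred in 1 of the 26 entries, that of Itgax, against 6.75% of all promoters and 4.30% of those of expressed genes, and the TATA box letters TATAAA in none of the 26 on either strand, against 12.4% and 6.13%. The windows of Itga5 and Itgb5, both abundant, are shown beside those of Itgb7 and Itgax, 2 leukocyte-associated chains of which the former was expressed and the latter was listed at 0. They are written 5′ to 3′ on the strand of the gene, with every CG in capitals.
Itga5, chr15:103366792-103367041, minus strand: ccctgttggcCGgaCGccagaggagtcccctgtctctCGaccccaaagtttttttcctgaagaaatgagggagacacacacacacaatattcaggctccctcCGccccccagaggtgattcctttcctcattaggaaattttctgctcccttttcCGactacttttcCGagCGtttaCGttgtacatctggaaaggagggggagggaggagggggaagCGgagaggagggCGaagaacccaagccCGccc
Itgb5, chr16:33829415-33829664, plus strand: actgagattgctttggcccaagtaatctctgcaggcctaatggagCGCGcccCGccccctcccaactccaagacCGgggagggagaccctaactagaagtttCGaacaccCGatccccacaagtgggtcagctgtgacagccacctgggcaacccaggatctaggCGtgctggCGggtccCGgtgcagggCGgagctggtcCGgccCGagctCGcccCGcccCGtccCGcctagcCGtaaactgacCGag
Itgb7, chr15:102231936-102232185, minus strand: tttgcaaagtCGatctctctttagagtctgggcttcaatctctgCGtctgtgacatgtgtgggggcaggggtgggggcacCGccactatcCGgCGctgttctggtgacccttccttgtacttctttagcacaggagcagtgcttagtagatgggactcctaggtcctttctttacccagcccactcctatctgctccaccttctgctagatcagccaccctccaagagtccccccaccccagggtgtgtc
Itgax, chr7:128129300-128129549, plus strand: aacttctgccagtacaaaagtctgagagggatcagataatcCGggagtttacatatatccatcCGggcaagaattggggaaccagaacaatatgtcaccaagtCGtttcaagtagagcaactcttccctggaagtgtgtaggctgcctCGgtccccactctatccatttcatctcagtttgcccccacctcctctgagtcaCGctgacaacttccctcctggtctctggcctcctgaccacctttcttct

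The Itga5 window held 11 CG and that of Itgb5 held 18, while those of Itgb7 and Itgax each held 5. A like number of CG thus stood before a gene at a mean of 29.3 FPKM and before a gene listed at 0. The window of Itgb1 held 21 CG and that of Itgav held 18, and those of Lamb1 and Lamb2 held 14 and 3. The order of the chains by CG was thus not their order by level.

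The first related list holds adaptor and signalling proteins of integrin adhesions, only some of which bind the integrin tails, and membrane partners of the receptors. Of 38 adaptors and membrane partners, 33 were expressed, 0 were higher and 3 (9.09%) were lower by 1.5-fold, against 7.46% and 8.08% of all expressed genes, with a median log2 difference of 0.14. Most of them had a mean above 10 FPKM, where such differences were rarer. Of all genes between 10 and 50 FPKM, 7.78% lay beyond 1.5-fold in either direction, and of those with at least 50 FPKM, 4.65%. The most abundant were Zyx, a focal adhesion protein of the zyxin family (939.5 FPKM with LIPUS and 760.2 FPKM in Control), Actn4, an actin crosslinker (313 and 282 FPKM), and Flna, which binds β tails and actin (288 and 236 FPKM). The lower genes were Tns1, a tensin of fibrillar adhesions (4.77 and 9.14 FPKM), Sharpin, an inhibitor of integrin activation (47.0 and 78.8 FPKM), and Cd47, the integrin-associated protein (17.9 and 27.01 FPKM).

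Of 29 integrin ligands, 23 were expressed, of which 6 (26.1%) were higher and 1 (4.35%) was lower by 1.5-fold, against 7.46% and 8.08% of all expressed genes, with a median log2 difference of 0.07. These counts depended on the limit, since at 2-fold 2 ligands were higher and 0 were lower. The ligands, like the other related lists, were chosen with earlier results of these data known. Their share of higher genes can therefore not be read as an enrichment. Spp1, the RGD protein osteopontin, had 4158 FPKM with LIPUS and 4514 FPKM in Control, and Fn1, the fibronectin bound by α5β1, had 2028 and 1915 FPKM (log2 difference 0.08). Ctgf, the third most abundant by the mean of the groups, had 2375 and 1271 FPKM, above Fn1 with LIPUS and below it in Control. The largest positive differences were those of Vtn, the vitronectin bound by αV integrins (26.9 and 7.59 FPKM, 1.81), Dmp1, an RGD protein of bone matrix (7.65 and 3.04 FPKM, 1.30), and Cyr61 (523.3 and 269 FPKM, 0.96). The lower gene was Tnn, or tenascin-W (19.9 and 39.2 FPKM).

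Of 28 genes of the basement membrane and its cell surface receptors, 21 were expressed, of which 3 were higher and 3 were lower (14.3% each), against 7.46% and 8.08% of all expressed genes, with a median log2 difference of 0.05. Sparc, a collagen-binding glycoprotein, had 1101 and 997.9 FPKM, Sdc1, a syndecan, had 589 and 604 FPKM, and Sdc4, a syndecan of focal adhesions, had 338 and 259 FPKM. The higher genes were Nid1, which links laminin γ1 to collagen IV (6.47 and 2.48 FPKM), Ntng2, a membrane-anchored netrin (2.75 and 1.15 FPKM), and Ntn4, a netrin that binds laminin (10.6 and 6.75 FPKM). The lower genes were Smoc1 (0.799 and 1.73 FPKM), Tinagl1 (9.58 and 14.6 FPKM) and Sdc3, a further syndecan (145 and 218 FPKM). Smoc1 was counted as expressed only through its Control value.

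**Figure D5:**
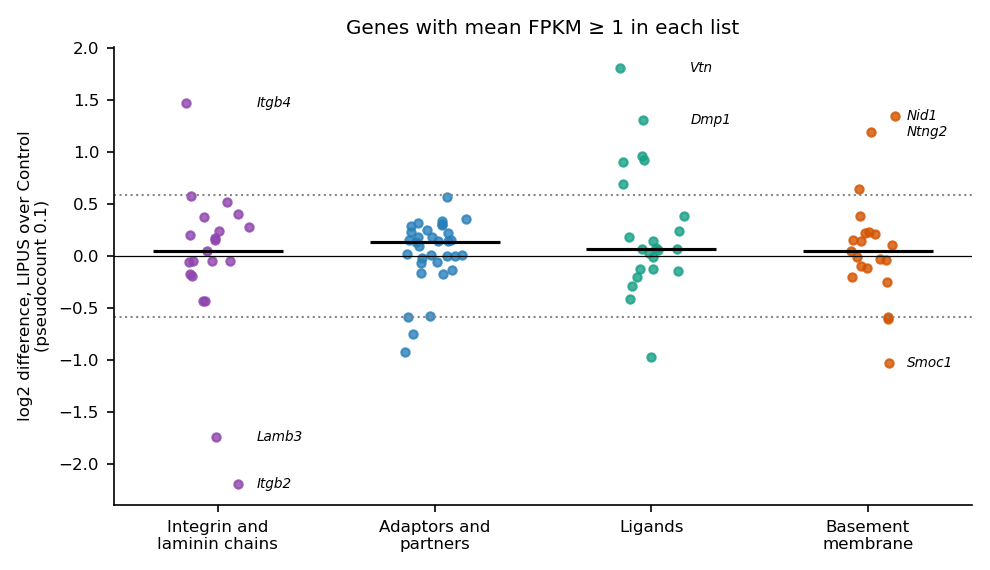
Log2 difference of LIPUS over Control, with a pseudocount of 0.1, of each gene with a mean of at least 1 FPKM among the integrin and laminin chains and 3 lists of related genes, with black lines at the medians and the 1.5-fold limits dotted. The medians lie between 0.05 and 0.14, and the ligands hold 6 genes above the upper limit.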

How the data were processed

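Stranded mRNA libraries of 3 LIPUS and 3 Control samples were sequenced, with samples assigned to groups from their titles. According to the submitters' processing notes, the tools of the authors were Trimmomatic 0.36, TopHat2 2.1.0 with Bowtie2 2.2.6.0 on GRCm38, Cufflinks 2.1.1 and Cuffdiff. The methods name another Cufflinks release and Ensembl transcripts. The authors deposited 1 table with a pooled FPKM per group. Its fold change, test statistic, p-value and q-value columns hold the authors' own comparison and were not used here. Per-library values and counts were not analysed here.

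Log2 differences are log2 of LIPUS over Control after adding a pseudocount of 0.1, which understates the change of low genes. Chains with a mean of at least 1 FPKM were counted as expressed, and a fold of 1.5 was used as a limit without a test. Expressed chains are named with both values, except 1 that is not reported here but is counted, and from each list the 3 most abundant genes and those past 1.5-fold, or the 3 largest in each direction where there were over 6. The members, lists and limits were chosen with earlier results of these data known. Positions, strands and exon overlaps came from GENCODE M21 (GRCm38) by Ensembl identifier, and promoter windows from RefSeq on GRCm38.p6. Starts equalled those of the table, which count from 0, for 31 of the 38 rows. Python 3.11.15, numpy 2.4.6, pandas 2.3.3 and matplotlib 3.10.9 were used.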

Additional observations from a re-analysis of the deposited data

How the results depend on the processing

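No paired analysis was possible because the table gives 1 pooled value per group, and for the same reason no replicate could be left out. The reads behind each value are not given, and pooled values differed most at low FPKM. The number of expressed chains lay between 14 and 30 over 5 alternatives, against 21. The integrin pairs with both chains expressed, 11, became 5 with a minimum of 5 FPKM and 17 with any value above 0, where the laminin trimers became 11 in place of 4. The chains higher with LIPUS, 1, became 5 at a lower limit of 0.32 on the log2 scale, 2 with a pseudocount of 0.01, 2 with FPKM rescaled to an equal sum per group, 0 with a minimum of 5 FPKM and 3 with any value above 0. The chains lower with LIPUS, 2, became 4 at the lower limit, 4 after rescaling, 0 with a minimum of 5 FPKM and 6 with any value above 0. With a pseudocount of 1 in place of 0.1, the log2 difference was 1.01 for Itgb4, -1.47 for Itgb2 and -1.03 for Lamb3. The median of the chains, 0.05, was -0.04 over the 24 chains that pass the minimum after rescaling and -0.03 with any value above 0. Rescaling raised all values, so that Itga10 joined the higher chains and Itga2 and Itga11 the lower ones. Over the same 21 chains, an alternative chosen after seeing the data, it gave 1 higher, 2 lower and a median of 0.01. With at least 1 FPKM in both groups, also chosen after seeing the data for these values, 0 chains were lower and the median was 0.16 over 19 chains, since Itgb2 and Lamb3 drop out. The 16 genes past 1.5-fold in the related lists became 5 at 2-fold. They became 15 with at least 1 FPKM in both groups, also chosen after seeing the data, since Smoc1 drops out. Another pseudocount cannot change the sign of a log2 difference. Rescaling moved the log2 differences by a median of -0.05 and by up to 0.10. Centring on the median of genes with at least 10 FPKM moved them by -0.01. Both lowered every difference, so that only a small positive one could have changed sign, and none of the 21 expressed chains did.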

Other observations

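Other receptors for the same matrix proteins were examined from lists chosen after the values of the chains were seen. Of 12 further matrix and adhesion receptors, 8 were expressed and 1 (12.5%) was higher and 0 were lower with LIPUS by 1.5-fold, against 7.46% and 8.08% of all expressed genes. The higher gene was Mcam, with 3.21 FPKM with LIPUS and 1.78 FPKM in Control. Lrp1, an endocytic receptor, had 426 and 404 FPKM, Cd44, the hyaluronan receptor, had 212 and 200.2 FPKM, and Gpc1, a glypican, had 110.3 and 88.5 FPKM. Ddr2, a collagen receptor kinase chosen after its values were seen, had 66.1 and 67.8 FPKM and was thus above the 4.44 and 4.61 FPKM of Itga1, the only collagen-binding integrin α chain that was expressed. Of 7 disintegrin genes, 6 were expressed and 0 lay past 1.5-fold in either direction, against the same shares of all expressed genes, with Adam23, which binds αVβ3, the most abundant at 174 and 169 FPKM, before Adam9 at 49.9 and 45.5 FPKM and Adam15 at 39.5 and 40.6 FPKM. Itgb3bp, a centromere protein named for its binding to the β3 tail, had 6.35 and 10.7 FPKM.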
